A study of Homo sapiens with 17 samples.

Results

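Interleukins and colony stimulating factors are secreted proteins through which cells signal inflammation and blood cell growth. The levels of 10 named genes were taken up here in human BJ fibroblasts, and 8 of them had a row in the deposited table of 9699 protein-coding genes: IL1B, IL6, LIF, IL11, CSF1, CSF2, CSF3 and IL6ST. IL1A and IL1RN were not analysed here. The members were chosen by name, not by a measured value. The table keeps a gene only if it reached 40 reads in both assays in at least 1 condition, so a gene that was low in most conditions entered through the condition where it was high, and counts over the 8 genes support nothing beyond their own values.

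BJ cells are foreskin fibroblasts, a single line here immortalized with telomerase (hTERT), which all groups shared. RNA-Seq (9 samples) measured mRNA, and Ribo-Seq (8 samples), the sequencing of ribosome-protected fragments, measured translation. Run 1 held proliferating cells, cells made quiescent by serum depletion and pre-senescent cells, which had been exposed to tamoxifen (4-OHT) for 5 days to activate an inducible oncogenic RASG12V. Run 2 held a further proliferating control, senescent cells at 14 days of RASG12V induction, and cells labelled transformed, which carried SV40 small T and stable knockdowns, among them that of p16INK4A, in addition to retroviral RASG12V. The 17 samples stand in 12 columns, 1 per condition, run and assay. Replicates of run 1 had been combined by the authors, so no spread within a condition and no p-value can be had. Whether the proliferating cells carried the RASG12V construct without tamoxifen is not given in the labels. The values are FPKM, fragments counted per length of transcript and per total of reads, and the authors set every value below 1 FPKM to 1, called the floor here. The table holds no read counts, so the number of reads behind each value was not recovered here.

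Interleukin-1 beta is made as a precursor that inflammasome proteases cut before release, and it signals through IL1R1 and IL1RAP to NF-kB. IL6, LIF and IL11 bind different receptor chains but share a signalling subunit, IL6ST, which activates JAK kinases and STAT3. CSF1, CSF2 and CSF3 act on macrophages, on granulocytes and macrophages, and on neutrophils, respectively, and many of these factors are known components of the secretome of senescent fibroblasts.

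Several labels were checked against the table before use. The Ribo-Seq libraries titled senescence and run 2 control carry each other's condition in a second label field. The titles were followed: MKI67, a proliferation marker, was at the floor in the Ribo-Seq column titled senescence and at 43.0 FPKM in that titled control, and the senescence RNA-Seq column was also at the floor against 44.0 FPKM. Across 9497 genes, which are not replicates, the senescence ratios of the assays correlated with Pearson r = 0.828 under the titles, and swapping them would turn the sign. In pre-senescence r was lower, 0.448 across 9357 genes, and in the other comparisons it was 0.702 to 0.868. The pre-senescence Ribo-Seq column is a single library, as are those of run 2, and the cause of the lower r was not tested. CDKN2A encodes p16INK4A on some of its transcripts. In the columns labelled transformed, its RNA was not lower than in the run 2 control (12.6 against 6.75 FPKM). It was lower than in the run 1 control (17.2 FPKM), so the RNA level cannot decide whether the knockdown was present. These columns are therefore called labelled transformed throughout. Their Ribo-Seq level of CDKN2A was lower than in the run 2 control, 5.51 against 8.92 FPKM. HRAS RNA was 312 FPKM in the columns labelled transformed, against 1284 FPKM in the run 2 control and 2087 FPKM in senescence. In run 1 it was 2415 FPKM in proliferation, 1254 FPKM in quiescence and 2102 FPKM in pre-senescence, so it was also high in both proliferating columns. The source of this level was not tested, and the labels do not say which RAS gene the constructs carried. All 9 fibroblast markers examined had a row, with summed RNA of 4754 to 6782 FPKM over the 6 conditions, most of it VIM. Single markers were far lower in senescence than in its control, COL1A1 with 51.6 against 1328 FPKM of RNA and DCN with 11.3 against 164 FPKM. LUM was at 20.6 against 155 FPKM and PDGFRB at 4.49 against 48.5 FPKM, while VIM was higher, 3943 against 2956 FPKM. COL1A1, DCN, LUM and PDGFRB were at 371, 27.6, 33.55 and 36.2 FPKM in the run 1 control. They were at 150, 3.68, 5.38 and 11.4 FPKM in pre-senescence, and at 762, 15.5, 13.3 and 60.9 FPKM in the cells labelled transformed. Low DCN and LUM were thus not particular to senescence. The part of these differences in the cytokine results was not tested. Of 7 leukocyte and macrophage markers 2 had a row, CD14 and CD68. Their summed RNA, nearly all of it CD68, was 39.3 FPKM in senescence and 54.0 FPKM in the cells labelled transformed against 73.8 FPKM in their control. In run 1 it was 84.6 FPKM in proliferation, 114 FPKM in quiescence and 133 FPKM in pre-senescence. CD14 did not exceed 1.67 FPKM in RNA. Its Ribo-Seq level was 1.94 FPKM in the run 2 control, 2.78 FPKM in senescence and 4.10 FPKM in the cells labelled transformed. PTPRC, CSF1R, LYZ and CD3E were among the markers without a row. None of 4 endothelial markers and 1 of 5 epithelial markers, KRT18, had a row. In bulk samples, fewer expressing cells and less RNA per cell cannot be told apart.

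The promoters of 4 of the cytokines whose levels are described next are shown because motifs for inflammatory transcription factors can be looked up in them. RefSeq entries (GRCh38.p14) were given for 5 of the 8 members, IL1B, IL6, IL11, CSF2 and IL6ST. Each stretch covers the 250 bases before the transcription start, 5′ to 3′ on the strand of the gene: chr2:112836780-112837029 on the minus strand for IL1B, chr7:22726950-22727199 on the plus strand for IL6, chr19:55370464-55370713 on the minus strand for IL11, and chr5:132073539-132073788 on the plus strand for CSF2. Capitals mark matches to the searched motifs.
IL1B: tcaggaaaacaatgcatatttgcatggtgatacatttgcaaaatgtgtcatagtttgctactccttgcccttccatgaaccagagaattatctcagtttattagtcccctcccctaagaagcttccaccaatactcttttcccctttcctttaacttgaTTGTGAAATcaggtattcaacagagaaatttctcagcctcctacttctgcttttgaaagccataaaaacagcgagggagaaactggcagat
IL6: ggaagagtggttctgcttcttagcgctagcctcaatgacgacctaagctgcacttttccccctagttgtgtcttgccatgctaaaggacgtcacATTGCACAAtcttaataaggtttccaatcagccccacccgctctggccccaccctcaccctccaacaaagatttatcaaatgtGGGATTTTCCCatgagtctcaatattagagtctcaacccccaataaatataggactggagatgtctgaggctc
IL11: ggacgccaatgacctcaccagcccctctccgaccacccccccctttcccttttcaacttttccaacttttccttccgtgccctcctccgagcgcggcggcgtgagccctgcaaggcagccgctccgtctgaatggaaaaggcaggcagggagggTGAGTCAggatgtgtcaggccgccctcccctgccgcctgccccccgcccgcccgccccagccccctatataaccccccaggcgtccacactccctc
CSF2: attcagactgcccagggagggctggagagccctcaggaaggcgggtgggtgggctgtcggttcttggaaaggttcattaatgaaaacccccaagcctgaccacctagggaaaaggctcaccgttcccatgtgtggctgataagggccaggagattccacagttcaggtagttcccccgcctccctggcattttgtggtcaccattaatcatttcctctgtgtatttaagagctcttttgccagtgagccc
The motifs searched, on both strands, were kappa-B (GGGANNNTC), AP-1 (TGANTCA), C/EBP (TTNNGNAAT) and the TATA box (TATAAA). In windows from 250 bases before to 50 after the start, they occurred in 15.5%, 7.76%, 11.2% and 11.95% of 27305 promoters, respectively. IL6 held kappa-B matches at -73 and -71, which overlap on opposite strands, and a C/EBP match starting at -156. IL1B held a C/EBP match at -91 and a kappa-B match at +40, after the start and outside the printed stretch. IL11 held an AP-1 match at -96. No match to these letters was found for CSF2 or IL6ST. These matches describe letters and no binding was measured.

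IL1B had the highest level of the cytokines in the senescent cells and in the cells labelled transformed. Its RNA was 1.22 FPKM in proliferation, 5.65 FPKM in quiescence and 10.6 FPKM in pre-senescence of run 1, and 3.53 FPKM in proliferation, 92.8 FPKM in senescence and 240.2 FPKM in the cells labelled transformed of run 2. Its Ribo-Seq level was at the floor in proliferation, 3.22 FPKM in quiescence and 5.17 FPKM in pre-senescence, and 7.91 FPKM in proliferation, 102.7 FPKM in senescence and 346 FPKM in the cells labelled transformed. Both oncogene-bearing columns of run 2 thus lay far above all other columns in either assay. IL1B RNA was 26.3-fold higher in senescence than in its control, and 68.0-fold higher in the cells labelled transformed. The Ribo-Seq ratios were smaller, 12.98-fold and 43.7-fold. The proliferating columns themselves differed 2.89-fold in RNA and at least 7.91-fold in Ribo-Seq, so the run 1 changes need that spread beside them: in quiescence 4.63-fold higher RNA and at least 3.22-fold higher Ribo-Seq, in pre-senescence 8.67-fold and at least 5.17-fold. Against the control of the other run, the Ribo-Seq log2 ratio of IL1B turned to -1.30 in quiescence and -0.61 in pre-senescence.

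IL6, the founding member of its family, was low in RNA everywhere. Its RNA was at the floor in all 3 conditions of run 1, and was 1.70 FPKM in proliferation, 6.99 FPKM in senescence and 9.99 FPKM in the cells labelled transformed. Its Ribo-Seq level was 1.33 FPKM in proliferation, at the floor in quiescence and 1.32 FPKM in pre-senescence, then 4.60, 22.6 and 25.9 FPKM in the proliferating, senescent and labelled transformed cells of run 2. The RNA was 4.11-fold higher in senescence and 5.88-fold higher in the cells labelled transformed, and the Ribo-Seq level 4.90-fold and 5.62-fold higher. The columns of senescent cells and cells labelled transformed differed by 1.43-fold in RNA and 1.15-fold in Ribo-Seq, under the call of 2-fold and under the difference between the controls of the 2 runs (3.46-fold in Ribo-Seq).

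LIF, which acts through LIFR and IL6ST, was highest in senescence. Its RNA was at the floor in the proliferating cells of either run, 1.48 FPKM in quiescence, 1.41 FPKM in pre-senescence, 9.35 FPKM in senescence and 2.89 FPKM in the cells labelled transformed. The Ribo-Seq level followed the same order in run 2: at the floor in both proliferating columns, 2.64 FPKM in quiescence, 1.92 FPKM in pre-senescence, 15.4 FPKM in senescence and 1.84 FPKM in the cells labelled transformed. In senescence LIF was therefore at least 9.35-fold higher in RNA and at least 15.4-fold higher in Ribo-Seq. In the cells labelled transformed it was 3.24-fold lower in RNA and 8.38-fold lower in Ribo-Seq than in senescence.

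IL11, a further IL6ST ligand, took opposite sides of its control in senescence and in the cells labelled transformed. Its RNA was 26.7, 12.4 and 30.9 FPKM in the proliferating, quiescent and pre-senescent cells of run 1, and 9.62, 6.09 and 35.8 FPKM in the proliferating, senescent and labelled transformed cells of run 2. The Ribo-Seq level was 33.9, 25.9 and 62.2 FPKM in run 1 and 8.98, 4.64 and 30.9 FPKM in run 2. Senescent cells had the lowest IL11 level of the 6 conditions in each assay. The cells labelled transformed exceeded their control 3.72-fold in RNA and 3.44-fold in Ribo-Seq, whereas the senescent ratios, 1.58-fold and 1.94-fold lower, did not reach 2-fold. The proliferating columns differed 2.77-fold in RNA and 3.78-fold in Ribo-Seq, run 1 being higher. With the control of the other run, the RNA log2 ratio of the cells labelled transformed went from 1.89 to 0.42, which ended the call, their Ribo-Seq log2 ratio was -0.14, and the RNA log2 ratio of quiescence moved from -1.11 to 0.36.

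IL6ST, the shared receptor subunit, was abundant in every column, and its Ribo-Seq level shifted relative to its mRNA in senescence and in the cells labelled transformed. Its RNA was 80.1, 97.2 and 85.9 FPKM in the proliferating, quiescent and pre-senescent cells, and 89.2, 97.4 and 48.0 FPKM in the proliferating, senescent and labelled transformed cells. Its Ribo-Seq level was 96.8, 112 and 117 FPKM in run 1 and 118, 259 and 136 FPKM in run 2. The senescent Ribo-Seq column stood above the other 5, which lay between 96.8 and 136 FPKM, while the labelled transformed RNA column stood below the other 5. In senescence the Ribo-Seq level was 2.19-fold higher with RNA at 1.09-fold, and in the cells labelled transformed RNA was 1.86-fold lower with Ribo-Seq at 1.15-fold. The controls of the 2 runs differed 1.11-fold in RNA and 1.22-fold in Ribo-Seq.

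CSF1, the macrophage growth factor, was lower in senescence in both assays, by more than 2-fold but not past a cut-off set by the local SD of genes of like level. Its RNA was 14.98, 21.6 and 6.69 FPKM in the proliferating, quiescent and pre-senescent cells of run 1, and 12.6, 3.07 and 7.45 FPKM in the proliferating, senescent and labelled transformed cells of run 2. The Ribo-Seq level was 23.1, 53.1 and 19.6 FPKM in run 1 and 26.1, 8.93 and 16.8 FPKM in run 2. Senescent cells had the lowest and quiescent cells the highest CSF1 level in each assay. The senescent column was 4.12-fold lower than its control in RNA and 2.92-fold lower in Ribo-Seq. Quiescent cells had 2.30-fold higher Ribo-Seq with RNA at 1.44-fold, and pre-senescent cells had 2.24-fold lower RNA with Ribo-Seq lower by 1.18-fold. The proliferating columns differed by at most 1.19-fold in either assay.

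CSF2, a growth factor of granulocytes and macrophages, was at the floor in both assays in proliferating and quiescent cells. Its RNA was 1.21 FPKM in pre-senescence, 7.45 FPKM in senescence and 6.93 FPKM in the cells labelled transformed, and the corresponding Ribo-Seq levels were 2.31, 16.6 and 8.26 FPKM. Senescent cells were thus at least 7.45-fold higher in RNA and at least 16.6-fold higher in Ribo-Seq than their control, and the cells labelled transformed at least 6.93-fold and at least 8.26-fold higher. Ribo-Seq of CSF2 was 2.01-fold lower in the cells labelled transformed than in senescence, with RNA lower by 1.08-fold.

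CSF3, which drives neutrophil production, was most abundant in the cells labelled transformed. Its RNA was at the floor in the proliferating cells of either run, 1.24 FPKM in quiescence, 3.12 FPKM in pre-senescence, 12.9 FPKM in senescence and 96.0 FPKM in the cells labelled transformed. Its Ribo-Seq level was at the floor in proliferation, 3.88 FPKM in quiescence and 13.7 FPKM in pre-senescence of run 1, and 1.40, 26.8 and 184 FPKM in the proliferating, senescent and labelled transformed cells of run 2. Every condition other than proliferation lay above its control in each assay. The RNA was at least 12.9-fold higher in senescence and at least 96.0-fold higher in the cells labelled transformed. The Ribo-Seq ratios were 19.1-fold and 131-fold against a control just above the floor. In pre-senescence CSF3 was at least 3.12-fold higher in RNA and at least 13.7-fold higher in Ribo-Seq, and in quiescence the Ribo-Seq level was at least 3.88-fold higher.

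**Figure D1:**
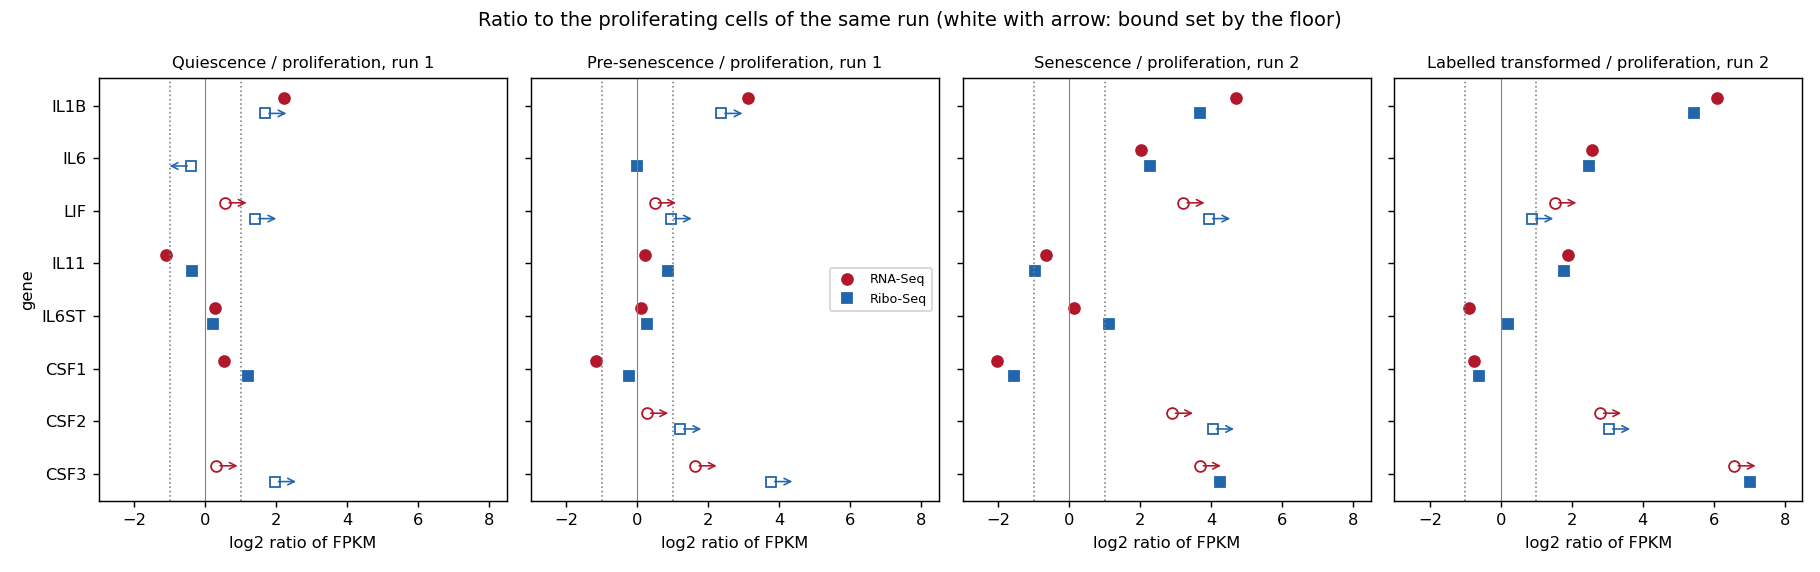
Log2 ratio of FPKM to the proliferating cells of the same run for the 8 genes in 4 conditions, with dotted lines at 2-fold and white symbols with arrows for ratios against the floor, which are bounds. CSF3 and IL1B had the highest ratios in the cells labelled transformed, and CSF1 lay on the lower side in senescence.

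Calls at a change of at least 2-fold were counted beside those of all genes in each comparison, and comparisons within a run share their control columns. In quiescence, 1 of 6 members with a ratio was higher in RNA (IL1B; 4.11% of all genes with a ratio) and 1 was lower (IL11; 2.43%). In Ribo-Seq 4 of 7 were higher (IL1B, LIF, CSF1 and CSF3; 9.31%) and 0 lower (8.2%). In pre-senescence, 2 of 7 were higher in RNA (IL1B and CSF3; 1.82%) and 1 lower (CSF1; 2.05%), and in Ribo-Seq 3 of 8 were higher (IL1B, CSF2 and CSF3; 7.31%) and 0 lower (10.6%). Most of these run 1 calls concerned values under 5 FPKM in the control.

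In senescence, 5 of 8 members were higher in RNA (IL1B, IL6, LIF, CSF2 and CSF3) where 7.19% of all genes were, and 1 was lower (CSF1) where 13.2% were. In Ribo-Seq 6 were higher, the same 5 and IL6ST, beside 11.2% of all genes, and 1 lower, CSF1, beside 16.8%. The median log2 ratio of the members was 2.47 in RNA and 2.996 in Ribo-Seq, and that of all genes -0.02 and -0.12. In the cells labelled transformed, 6 of 8 were higher in RNA (IL1B, IL6, LIF, IL11, CSF2 and CSF3; 4.97% of all genes) and 0 lower (5.39%). In Ribo-Seq 5 were higher, without LIF (5.34%), and 0 lower (7.44%). The median log2 ratio of the members was 2.22 in RNA and 2.14 in Ribo-Seq, and that of all genes 0.09 and 0.01. With the floor raised to 5 FPKM, the RNA calls of IL6, LIF and CSF2 ended in both conditions. Under the cut-off by local SD, the senescence calls of CSF1 in both assays, of IL6 in RNA and of IL6ST in Ribo-Seq ended. The cells labelled transformed exceeded the senescent cells in RNA for IL1B, IL11, CSF1 and CSF3, 4 of 8 members beside 15.3% of all genes, and were lower for LIF and IL6ST, 2 of 8 beside 8.19%. In Ribo-Seq IL1B, IL11 and CSF3 were higher, 3 of 8 beside 17.5%, and LIF and CSF2 lower, 2 of 8 beside 12.8%.

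The proliferating columns of the 2 runs give the only measure of spread for a single condition, and it holds run and culture together. Between them 2 of 5 members with a ratio changed at least 2-fold in RNA (IL1B and IL11; 7.97% of all genes in either direction), and 3 of 6 in Ribo-Seq (IL1B, IL6 and IL11; 18.9%). For IL1B the senescent ratio of 26.3-fold in RNA exceeded this difference of 2.89-fold, for IL6 the Ribo-Seq ratio of 4.90-fold was close to the 3.46-fold between controls, and for IL11 the difference between controls was larger than the senescent change.

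Translation efficiency (TE), the log2 ratio of Ribo-Seq to RNA-Seq FPKM, was compared only where all 4 values lay above the floor. The TE of IL6ST was 0.27 in proliferation, 0.21 in quiescence and 0.45 in pre-senescence of run 1, and 0.41 in proliferation, 1.41 in senescence and 1.498 in the cells labelled transformed. The last 2 lay above all 4 others, whose range was 0.21 to 0.45. The TE of IL6ST was 2.01-fold higher in senescence and 2.13-fold higher in the cells labelled transformed than in their control, the former just past the 2-fold call and lost under the cut-off set by the local SD. IL1B took the other direction: its TE was 1.16 in the run 2 control, 0.15 in senescence and 0.53 in the cells labelled transformed, and -0.81 and -1.03 in quiescence and pre-senescence. Its TE was 2.02-fold lower in senescence. The control value rests on 3.53 FPKM of RNA, and adding a pseudocount of 1 FPKM, raising the floor to 5 FPKM or centring on the median of all genes ended the call. In senescence 1 of 5 members was higher in TE (2.68% of all genes) and 1 lower (5.87%), and in the cells labelled transformed 1 of 5 was higher (0.899%) and 0 lower (1.79%).

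No member with a TE ratio was called in quiescence, with 0 of 3 higher (3.09%) and 0 of 3 lower (3.97%), or in pre-senescence, with 0 of 3 higher (4.92%) and 0 of 3 lower (8.32%). Between the senescent cells and the cells labelled transformed, all 8 members had a TE ratio, of which 0 were higher (2.53%) and 1 was lower (2.44%). That member was LIF, with a TE of 0.72 in senescence and -0.65 in the cells labelled transformed, a 2.59-fold difference. The latter value rests on 2.89 FPKM of RNA and 1.84 FPKM of Ribo-Seq, both near the floor, and raising the floor to 5 FPKM ended the call. CSF1 kept a TE between 0.63 and 1.55 in the 6 conditions, IL6 between 1.37 and 1.69 in run 2, and IL11 between -0.39 and 1.06.

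Among the receptors that pair with these cytokines, 6 of 13 had a row: IL1R1, IL1RAP, IL6R, IL11RA, LIFR and OSMR. In senescence 0 of 6 were higher (7.19% of all genes) and 2 lower (13.2%) in RNA, the latter IL1R1 and IL11RA, and 3 of 6 were higher in Ribo-Seq (11.2%), OSMR, IL6R and IL1RAP. The controls of the 2 runs differed 2.20-fold for IL11RA in RNA and 2.88-fold for IL1RAP in Ribo-Seq. OSMR, the oncostatin M receptor chain that pairs with IL6ST, was at 25.2 FPKM in RNA and 50.1 FPKM in Ribo-Seq in the run 2 control, 34.9 and 149.8 FPKM in senescence, and 59.8 and 136.9 FPKM in the cells labelled transformed. Its TE was 2.16-fold higher in senescence, and that of LIFR 2.04-fold higher, although the TE of LIFR also differed 2.39-fold between the controls of the 2 runs. In the cells labelled transformed 2 of 5 receptors with a ratio were higher in RNA (4.97% of all genes). In Ribo-Seq 3 of 6 were higher (5.34%) and 1 was lower (IL11RA; 7.44%). OSMR was 2.37-fold and IL1RAP, the interleukin-1 receptor accessory chain, 2.07-fold higher in RNA. IL1RAP was at 2.42 FPKM in RNA and 12.2 FPKM in Ribo-Seq there, against 1.17 and 3.88 FPKM in the run 2 control. The run 1 control was at 2.07 and 11.2 FPKM, so both IL1RAP calls end against it. IL1R1, the signalling receptor of interleukin-1, was at 18.5 FPKM in RNA in the control, 5.57 FPKM in senescence and 30.2 FPKM in the cells labelled transformed, a 5.42-fold difference between the last 2. The median RNA log2 ratio of the receptors was 0.06 in senescence and 0.71 in the cells labelled transformed, beside -0.02 and 0.09 for all genes. No receptor was called in RNA in quiescence (4.11% of all genes higher and 2.43% lower) or pre-senescence (1.82% and 2.05%). In quiescence 1 of 6 was higher in Ribo-Seq (LIFR; 9.31%), with 3.44 FPKM against 1.57 FPKM in its control. The run 2 control was at 4.24 FPKM, so that call ends against it.

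Of 19 relay and feedback genes 15 had a row. In RNA 1 was higher and 1 lower in senescence, beside 7.19% and 13.2% of all genes, and 2 were higher and 1 lower in the cells labelled transformed, beside 4.97% and 5.39%, which at 15 genes is close to the shares over all genes. Their median RNA log2 ratios were -0.21 and 0.20. In quiescence 1 was higher and 1 lower in RNA (4.11% and 2.43% of all genes). In pre-senescence 0 were called in RNA (1.82% higher and 2.05% lower). There, 2 were higher and 2 lower in Ribo-Seq (7.31% and 10.6%), which at 15 genes is close to these shares. IRAK2, a kinase downstream of the interleukin-1 receptor, was at 1.94 FPKM in the run 2 control, 9.20 FPKM in senescence and 16.9 FPKM in the cells labelled transformed in RNA, and at 3.64, 13.1 and 23.9 FPKM in Ribo-Seq. SOCS3, a feedback inhibitor of IL6ST signalling, was 3.18-fold higher in RNA and 2.82-fold higher in Ribo-Seq in the cells labelled transformed, and at 13.5 FPKM in senescence against 16.9 FPKM in the control. SOCS2, a related inhibitor, was 7.41-fold lower in RNA in senescence and 2.98-fold higher in quiescence, where it was at 12.1 FPKM. Its proliferating columns were at 4.05 FPKM in run 1 and 11.1 FPKM in run 2, so the quiescence call ends against the control of the other run. IRAK4, a further kinase of the interleukin-1 receptor pathway, was 2.20-fold lower in RNA and 2.01-fold lower in Ribo-Seq in the cells labelled transformed, with RNA of 4.22 FPKM against 9.29 FPKM in the run 2 control and 4.20 FPKM in the run 1 control. STAT3 RNA was 41.7, 52.2 and 49.1 FPKM in the proliferating, senescent and labelled transformed cells of run 2.

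**Figure D2:**
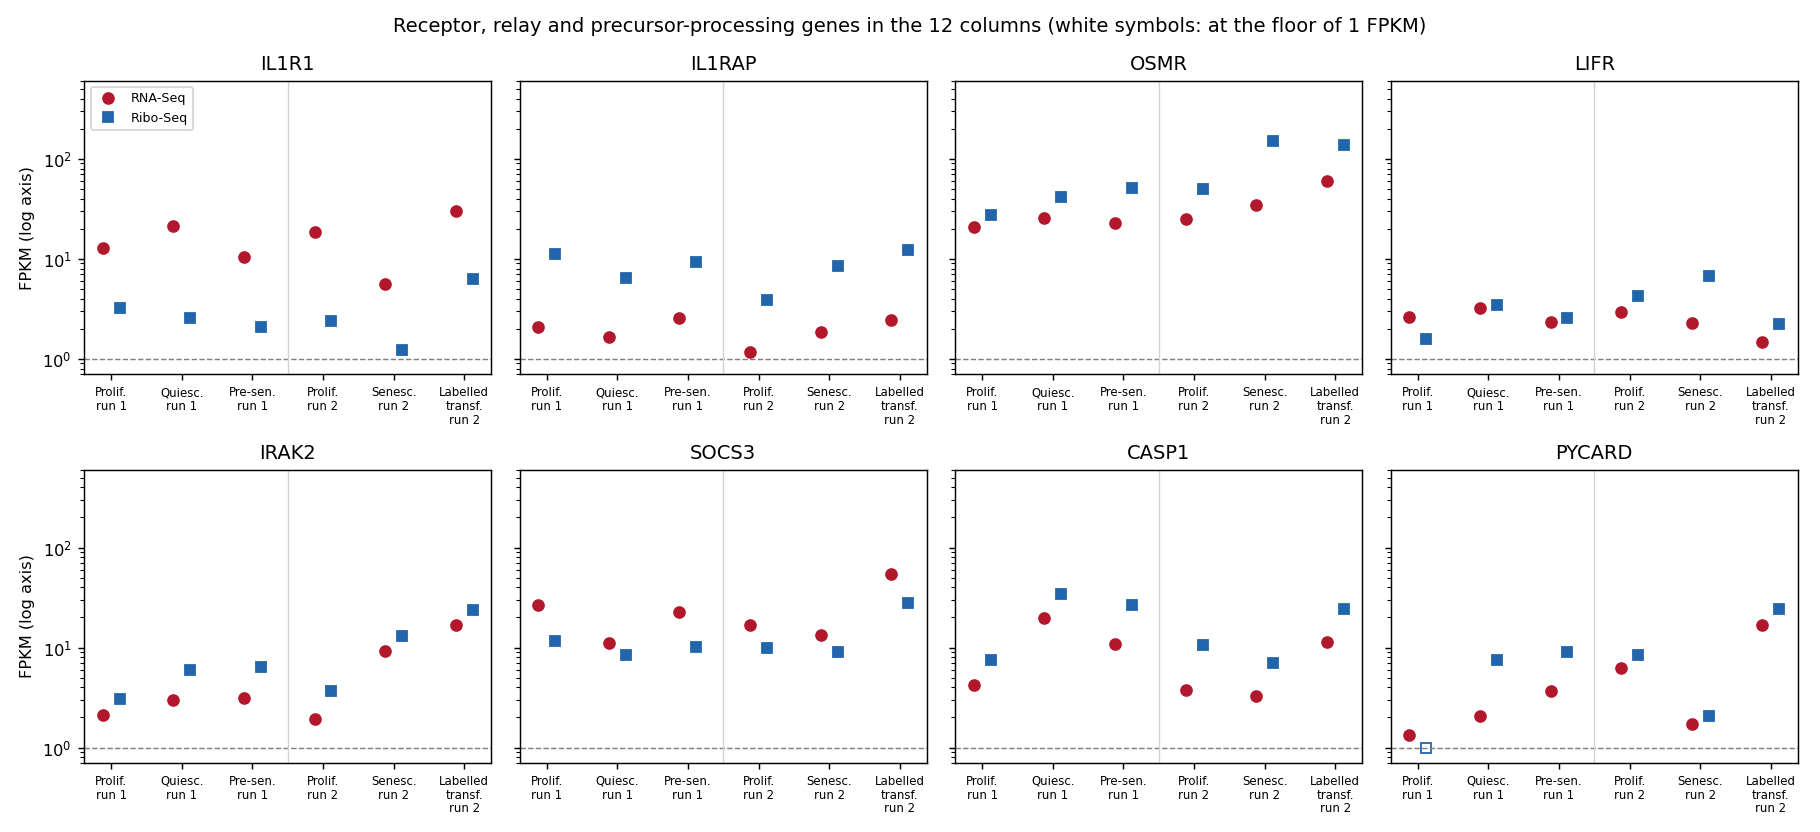
FPKM on a log axis for 4 receptors, 2 relay and feedback genes and 2 genes of interleukin-1 precursor processing in the 6 conditions, drawn as in the plot of cytokine levels. PYCARD and IL1R1 were lower in senescence and higher in the cells labelled transformed than in the run 2 control.

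Processing of the interleukin-1 precursor was represented by 8 of 10 listed genes. In senescence 1 of 7 with a ratio was higher in RNA (7.19% of all genes) and 2 were lower (13.2%), and in the cells labelled transformed 3 of 8 were higher (4.97%) and 0 lower (5.39%). Their median RNA log2 ratios were -0.06 and 0.49. In quiescence 1 of 7 was higher in RNA (4.11% of all genes) and 0 lower (2.43%). In pre-senescence 3 of 8 were higher (1.82%) and 0 lower (2.05%). PYCARD, the adaptor that joins inflammasome sensors to caspase-1, was at 6.31 FPKM of RNA in the run 2 control, 1.71 FPKM in senescence and 16.7 FPKM in the cells labelled transformed. Its Ribo-Seq levels of 8.42, 2.07 and 24.4 FPKM followed the same order. The run 1 control was at 1.33 FPKM in RNA and at the floor in Ribo-Seq, so the controls differed 4.74-fold and at least 8.42-fold, more than the senescent change, and the senescent values lie above that control. CASP1, the protease that cuts the precursor, was 4.70-fold higher in RNA in quiescence, 2.56-fold higher in pre-senescence and 3.06-fold higher in the cells labelled transformed, and 3.31 FPKM in senescence against 3.75 FPKM in the control. CASP4, an inflammatory caspase, was 2.16-fold higher in RNA and 2.003-fold higher in Ribo-Seq in senescence, but its run 1 control (31.9 FPKM in RNA and 66.3 FPKM in Ribo-Seq) was close to the senescent levels of 46.1 and 70.5 FPKM, so both calls end against it. NLRP1, an inflammasome sensor, was 2.05-fold lower in RNA and 2.01-fold lower in Ribo-Seq in senescence, at levels under 3 FPKM.

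Regulators of cytokine mRNA stability were listed under 13 names, of which AUF1 and ROQUIN are other names of HNRNPD and RC3H1, and the 11 genes all had a row. Most bind AU-rich elements, whereas ZC3H12A and RC3H1 recognise stem-loops and MAPKAPK2 is a kinase. In senescence 1 was higher (7.19% of all genes) and 2 lower (13.2%) in RNA, with a median log2 ratio of -0.40. In RNA 0 of 11 were called in quiescence (4.11% higher and 2.43% lower) and in pre-senescence (1.82% and 2.05%). HNRNPD was 3.51-fold lower in RNA and 3.06-fold lower in Ribo-Seq in senescence, and ZFP36L2, an mRNA decay factor, 2.50-fold and 2.22-fold lower. ZC3H12A, an RNase that degrades inflammatory mRNA, was 2.35-fold higher in RNA in senescence and 7.28-fold higher in the cells labelled transformed, where 1 of 11 was higher (4.97%) and 0 lower (5.39%). Of 46 other interleukins and haematopoietic cytokines, 3 had a row: IL32, CLCF1 and KITLG. In senescence 1 of 3 was higher in RNA (7.19% of all genes), IL32 with 5.66 against 1.62 FPKM. In Ribo-Seq 2 were higher (11.2%), CLCF1 with 15.5 against 3.86 FPKM and KITLG with 64.8 against 17.35 FPKM. There, 0 were lower in RNA (13.2%) or Ribo-Seq (16.8%), and TE was higher for 2 (2.68%) and lower for 0 (5.87%). In the cells labelled transformed 0 were higher and 1 lower, KITLG, in RNA (4.97% and 5.39%) and in Ribo-Seq (5.34% and 7.44%). KITLG, the ligand of the KIT receptor, was at 35.9 FPKM of RNA in the control, 54.5 FPKM in senescence and 5.71 FPKM in the cells labelled transformed, which were 6.29-fold lower than the control.

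For each member, the 3 genes with the most similar pattern were taken by Pearson r over the 12 columns, each assay centred on its own mean, among 9495 genes. These r values describe 12 columns that share libraries and runs. From 10 (IL6ST) to 102 (IL11) genes had r above 0.9 with a member, so the top match is one of many. LIF lay above the floor in 8 and CSF2 in 6 of the 12 columns, so tied floor values enter their r. CSF3 was most like IRAK2 (r = 0.97), CTSS and ZC3H12A. IL1B was most like ST3GAL5 (r = 0.98), SQRDL and C3, a complement component whose RNA was at the floor in the run 2 control, 37.0 FPKM in senescence and 94.4 FPKM in the cells labelled transformed. LIF was most like ATP6AP1 (r = 0.99), CSF2 most like CD44 (r = 0.99), IL6 most like BMPER (r = 0.98), IL11 most like KAT2A (r = 0.98), CSF1 most like PCDHGC3 (r = 0.97) and IL6ST most like AFF4 (r = 0.94).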

How the data were processed

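RNA-Seq and Ribo-Seq of BJ fibroblasts were taken from 1 deposited table with 12 value columns for 17 samples. The authors aligned reads with Bowtie to 1 representative Ensembl release 65 transcript per gene (hg19 per the submitters' processing notes), kept unique alignments and computed FPKM over the whole transcript for RNA-Seq and over the coding sequence for Ribo-Seq. The deposited FPKM values below 1 were set to 1 by the authors, and genes with at least 40 reads in both assays in 1 or more conditions were kept. How replicates of run 1 were combined is not given in the sources used here.

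From these values, ratios to the proliferating column of the same run were computed with Python 3.11.15, numpy 2.4.6 and pandas 2.3.3, without pseudocount. A ratio with 1 column at the floor is a bound, and with both at the floor none was formed. Calls needed a change of at least 2-fold. No test was possible, since each condition has 1 column per run and assay. Single-read steps could not be recovered from FPKM values at 2 decimals with a floor, and read totals per library from the study were not used here, so no counting interval is given. The calculation was tested on simulated data. All members are named. Listed genes are named if called in the same direction in both assays, at most 4 per list and comparison. IL1R1, OSMR, IL11RA, IL6R, LIFR, STAT3, SOCS3 and CASP1 in senescence, IL32 and CLCF1 were added after their values were seen. The members and lists were chosen with earlier results of these data known. Alternatives were a floor of 5 FPKM, a pseudocount of 1, the control of the other run, median-centred ratios, a cut-off of 1.75 local SDs, and only genes of at least 5 FPKM. Some label and marker checks are not reported here.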

Additional observations from a re-analysis of the deposited data

Results flagged for a closer look

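Members and named listed genes on opposite sides of the run 2 control in senescence and in the cells labelled transformed were singled out. A change of at least 1.5-fold was needed in both assays and both conditions, so genes with smaller opposite changes are left out. These differences between conditions were not tested, since each condition has 1 column per assay. IL11 had log2 ratios of -0.66 in RNA and -0.95 in Ribo-Seq in senescence, and of 1.89 and 1.78 in the cells labelled transformed. Its proliferating columns differed 2.77-fold in RNA and 3.78-fold in Ribo-Seq, more than the senescent change. Against the control of the other run, the labelled transformed Ribo-Seq log2 ratio of IL11 was -0.14. The ratios of IL1R1, the interleukin-1 receptor, were -1.73 and -0.96 in senescence and 0.71 and 1.40 in the cells labelled transformed. Its Ribo-Seq levels were low, 2.38 FPKM in the control, 1.22 FPKM in senescence and 6.26 FPKM in the cells labelled transformed. PYCARD, the inflammasome adaptor, had -1.88 and -2.02 in senescence against 1.41 and 1.54, while its proliferating columns differed more than that, 4.74-fold in RNA and at least 8.42-fold in Ribo-Seq, and its senescent values lie above the run 1 control. KITLG, the KIT ligand, went the other way, with 0.60 and 1.90 in senescence and -2.65 and -1.33 in the cells labelled transformed.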

How the results depend on the processing

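No paired analysis was possible because the columns carry no replicate numbers, and for the same reason no replicate could be left out. With a floor of 5 FPKM, the members called went from 2 to 1 in quiescence RNA, from 4 to 1 in quiescence Ribo-Seq, from 3 to 1 in pre-senescence Ribo-Seq, from 6 to 3 in senescence RNA and in labelled transformed RNA, from 2 to 1 in senescence TE, and from 1 to 0 in TE between the cells labelled transformed and senescence. Limiting the genes to at least 5 FPKM left 1 call in quiescence Ribo-Seq. With the control of the other run there were 0 calls in quiescence RNA, 2 in TE of quiescence and of pre-senescence, and 1 in senescence TE. That control turned the log2 ratio of IL11 to 0.36 in quiescence RNA and -0.14 in labelled transformed Ribo-Seq, and that of IL1B to -1.30 in quiescence and -0.61 in pre-senescence Ribo-Seq. Median centring gave 5 calls in pre-senescence Ribo-Seq, 1 in pre-senescence TE and 1 in senescence TE, and a pseudocount of 1 also gave 1 in senescence TE. The call of IL6ST was the one that remained there under these settings, and under the cut-off set by the local SD it was that of IL1B. The local cut-off gave 1 call in pre-senescence Ribo-Seq, 1 in senescence TE, 2 in labelled transformed TE, 3 in RNA and 2 in TE between the cells labelled transformed and senescence. The other-run control exchanges culture and run together, and for RNA-Seq also the read layout. The cause of these differences was not tested. The floor of 1 FPKM turns ratios to bounds for LIF and CSF2 in both runs, for CSF3 in run 1 and in run 2 RNA, and for IL1B in run 1 Ribo-Seq, and leaves IL6 without an RNA ratio in run 1.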
